A study of Mus musculus with 14 samples.

Results

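Regions that were open before GATA6 induction and open again at the end, but closed in between, were collected from 14 ATAC-seq peak lists of mouse embryonic stem (mES) cells. ATAC-seq uses the Tn5 transposase to cut and tag accessible DNA, so a peak marks open chromatin. Overlapping autosomal peaks of all lists were merged into 121891 regions, and 22799 of these had a call in each of the 4 libraries from 0 h and 48 h (end-shared regions). Members were selected on the calls themselves: an end-shared region was kept where neither library of at least 1 of 2, 4, 8, 16 and 24 h called it. This gave 1650 members, which is 7.24% of the end-shared regions. The calls that chose them are given as descriptions, without a test.

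The cells were of the KH2 line, labelled strain C57BL/6, and all carried a single-copy TRE:GATA6-DSREd2 transgene, in which a TET-responsive element drives GATA6 and a red fluorescent reporter when doxycycline (Dox) is given. Cells at 0 h were in 2i medium without Dox, which holds mES cells in a naive state through inhibitors of MEK and GSK3 together with LIF. Cells at 2, 4 and 8 h were in serum medium with LIF and Dox at 1 µg/mL until harvest, and those of 16, 24 and 48 h were given Dox for 12 h, then the same medium without it. There were 2 libraries of 50000 cells per time point. No library was from cells moved to serum without Dox, so Dox, medium and time cannot be told apart. The transgene is 1 integration in 1 line, and the libraries of a time point are described as independently made replicates, without saying whether separate cultures were used.

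GATA6 is the transcription factor that directs inner cell mass cells to primitive endoderm (PrE), the extraembryonic layer that later lines the yolk sac. Cells that keep NANOG and SOX2 form the epiblast (Epi) instead. Regulatory elements such as enhancers are open when transcription factors hold nucleosomes off them, and a cell that changes identity closes one set of elements and opens another. A region that is open in both the starting and the final cells but not between them follows neither course.

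The lists held 55588 to 65073 peaks over all chromosomes. On autosomes the 2 h lists averaged 58967 peaks and the 24 h lists 56433, although the 24 h lists missed fewer end-shared regions. Within each time point from 2 h to 24 h, however, the shorter list missed more of them. At 2 h, the list of 57177 peaks missed 7.99% and that of 60756 peaks 6.01%. Whether list length or depth contributed was not tested. All 14 libraries were most like the other library of their own time point, with 73.6% to 75.7% of regions shared by each such pair. The lists hold no read counts, so no value here is adjusted for depth. The study's supplement gives aligned reads per library, which are fewer for replicate 1 than for replicate 2 at every time point and were not used here. A region that a library did not call can still be open, below its calling threshold. Promoter calls separated the cell types poorly. The promoters of Pou5f1, Sox2, Esrrb and Zfp42 (pluripotency) and of Sox17, Pdgfra and Dab2 (PrE) were called in all 14 libraries, and so were those of Cdx2 and Pax5, which mark other lineages. Foxa2, an endoderm factor, was called at its promoter in no library up to 4 h and in both libraries at every later time point, and Alb in none. Nanog was called in both libraries at 0, 4 and 16 h, in 1 at 2 and 24 h, and in neither at 8 and 48 h. Myod1, a muscle gene, was called in no library up to 4 h, in 1 at 8 and 24 h, and in both at 16 and 48 h.

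The sequences below are the central 200 bases of members picked by a ranking rule, so that each class of absence can be seen. They are read 5′ to 3′ on the plus strand of GRCm38, named by the nearest protein-coding TSS, and capitals mark matches to any of the 14 transcription factor motifs searched, which are given further on. The first 5 were absent at 1 time point alone (2, 4, 8, 16 and 24 h in that order) and were ranked first in that class by the lowest of their 4 score percentiles at 0 h and 48 h. All 5 lay in introns.
Plekhg1 region, chr10:3941303-3941502: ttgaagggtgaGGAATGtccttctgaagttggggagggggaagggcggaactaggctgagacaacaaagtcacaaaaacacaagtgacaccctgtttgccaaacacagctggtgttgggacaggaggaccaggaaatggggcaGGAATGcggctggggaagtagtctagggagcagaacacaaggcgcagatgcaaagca
Pdzrn3 region, chr6:101272131-101272330: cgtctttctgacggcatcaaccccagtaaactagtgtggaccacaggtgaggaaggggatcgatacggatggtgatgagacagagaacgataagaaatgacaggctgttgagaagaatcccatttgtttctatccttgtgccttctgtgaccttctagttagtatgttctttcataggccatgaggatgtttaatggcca
Tns3 region, chr11:8569560-8569759: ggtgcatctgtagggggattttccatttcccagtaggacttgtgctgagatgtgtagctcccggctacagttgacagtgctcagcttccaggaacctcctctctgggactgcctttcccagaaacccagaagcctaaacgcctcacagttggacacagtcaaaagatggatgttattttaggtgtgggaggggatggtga
Pawr region, chr10:108403528-108403727: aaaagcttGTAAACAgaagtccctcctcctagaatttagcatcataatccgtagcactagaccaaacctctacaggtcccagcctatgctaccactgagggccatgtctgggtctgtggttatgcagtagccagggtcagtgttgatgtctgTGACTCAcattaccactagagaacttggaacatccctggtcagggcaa
Abcb5 region, chr12:118917842-118918041: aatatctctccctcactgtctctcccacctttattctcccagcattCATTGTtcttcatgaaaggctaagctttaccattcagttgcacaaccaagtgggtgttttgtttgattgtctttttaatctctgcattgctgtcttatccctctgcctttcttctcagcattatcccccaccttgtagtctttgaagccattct
The Pdzrn3 and Tns3 windows held none of the motifs, the Plekhg1 window held the TEAD letters at 2 places, the Pawr window held 1 forkhead and 1 AP-1 match, and the Abcb5 window held 1 SOX match.

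The next 3 were absent at all 5 time points and lay in an intron (Fbxo36) or between genes.
Fbxo36 region, chr1:84872130-84872329: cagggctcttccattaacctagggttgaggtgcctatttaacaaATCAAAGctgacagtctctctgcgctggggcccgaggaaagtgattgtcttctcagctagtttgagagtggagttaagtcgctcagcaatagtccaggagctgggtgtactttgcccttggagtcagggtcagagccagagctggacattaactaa
St6gal2 region, chr17:55428671-55428870: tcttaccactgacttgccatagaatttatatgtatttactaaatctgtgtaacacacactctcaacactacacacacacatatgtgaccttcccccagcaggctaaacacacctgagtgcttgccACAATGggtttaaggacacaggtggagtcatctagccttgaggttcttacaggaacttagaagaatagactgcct
Olfr867 region, chr9:20073626-20073825: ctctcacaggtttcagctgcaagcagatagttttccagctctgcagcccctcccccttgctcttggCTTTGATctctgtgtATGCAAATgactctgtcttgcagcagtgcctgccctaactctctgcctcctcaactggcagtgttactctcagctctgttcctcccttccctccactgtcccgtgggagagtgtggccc
The Fbxo36 window held 1 TCF match, the St6gal2 window 1 SOX match, and the Olfr867 window a TCF match followed by an octamer, the site read by POU factors such as OCT4.

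Absence was most frequent early. Both 2 h libraries missed 798 members (3.5% of end-shared regions), both 4 h libraries 701 (3.07%), both 8 h libraries 583 (2.56%), both 16 h libraries 410 (1.8%) and both 24 h libraries 291 (1.28%). Of the members, 1076 were absent only while Dox was present (2, 4 or 8 h), 263 only at 16 or 24 h, and 311 on both sides of Dox removal. Most were absent at 1 time point alone (976 members, 59.2%), and 37 (2.24%) were absent at all 5. Among single time points, 2 h alone held 375 members, 4 h alone 213, 8 h alone 158, 16 h alone 127 and 24 h alone 103. Fewer calls are required when a library of 0 h or 48 h is left out, and without 0 h replicate 1 the rule gave 2855 members.

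**Figure D1:**
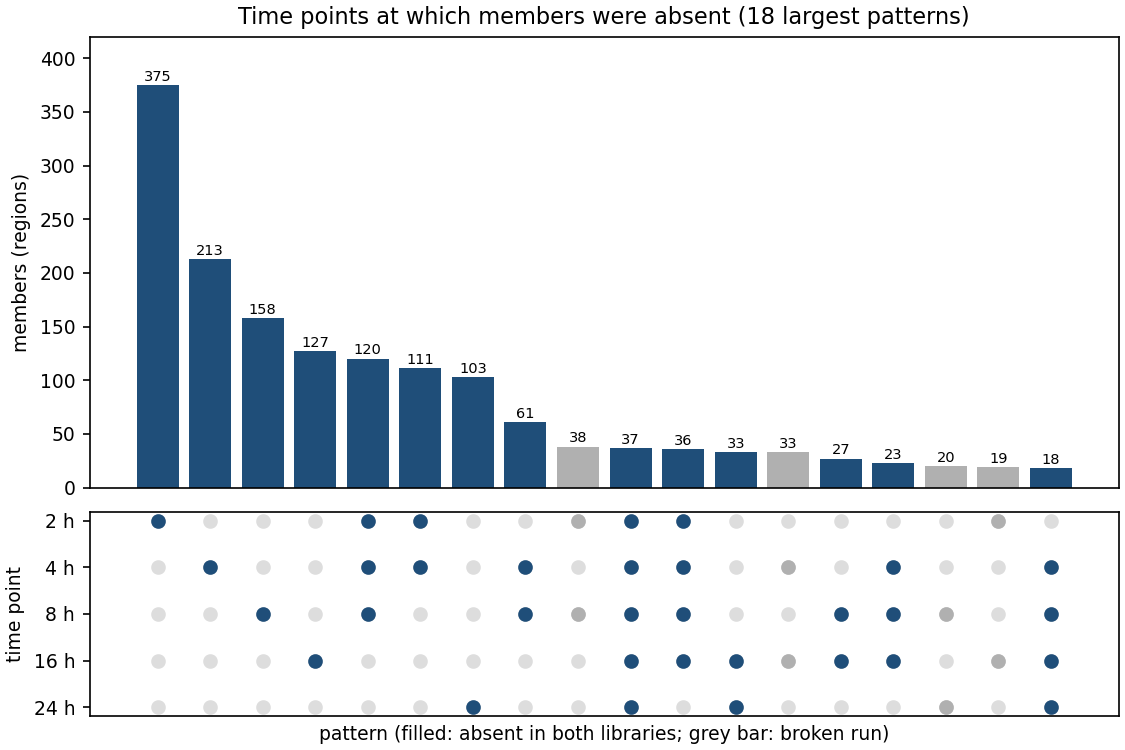
Number of members (bars, upper panel) for the 18 largest combinations of time points at which they were absent in both libraries (filled circles, lower panel). Dark bars are unbroken runs of time points and grey bars are broken ones; 2 h alone held 375 members, and the run 2, 4 and 8 h held 120.

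Where a member was absent at several time points, these were mostly consecutive. Of the 637 members absent at 2 to 4 time points, 444 (69.7%) were absent in 1 unbroken run (a description of the calls that chose them). The largest was 2, 4 and 8 h (120 members), followed by 2 and 4 h (111), 4 and 8 h (61), and 2 and 8 h with a call at 4 h between them (38). Members absent at 2 h were called by both libraries in 27.8% of cases at 4 h, 42.0% (8 h), 68.4% (16 h) and 75.4% (24 h). These shares also describe the calls that chose the members, and the rule itself required calls at 48 h. A call was not always kept, as in the 38 members absent again at 8 h.

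Counted per library rather than per member, the share of end-shared regions left uncalled was highest at 2 h and lowest at 24 h. The 2 h libraries missed 7.99% and 6.01%, the 4 h libraries 6.59% and 5.82%, the 8 h libraries 5.16% and 4.83%, the 16 h libraries 3.94% and 3.74%, and the 24 h libraries 3.30% and 2.82%. The 2 h and 4 h values overlapped, and from 4 h on no time point overlapped the next. Means were 7.0% ± 1.40 (2 h), 6.20% ± 0.55 (4 h), 5.00% ± 0.23 (8 h), 3.84% ± 0.14 (16 h) and 3.06% ± 0.34 (24 h) (SD, n = 2 each). These shares differed between time points by more than the spread between libraries (F = 10.8, one-sided exact permutation test over the 945 ways of pairing 10 libraries, p = 0.00635, Benjamini-Hochberg adjusted p = 0.0125 over 3 tests).

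**Figure D2:**
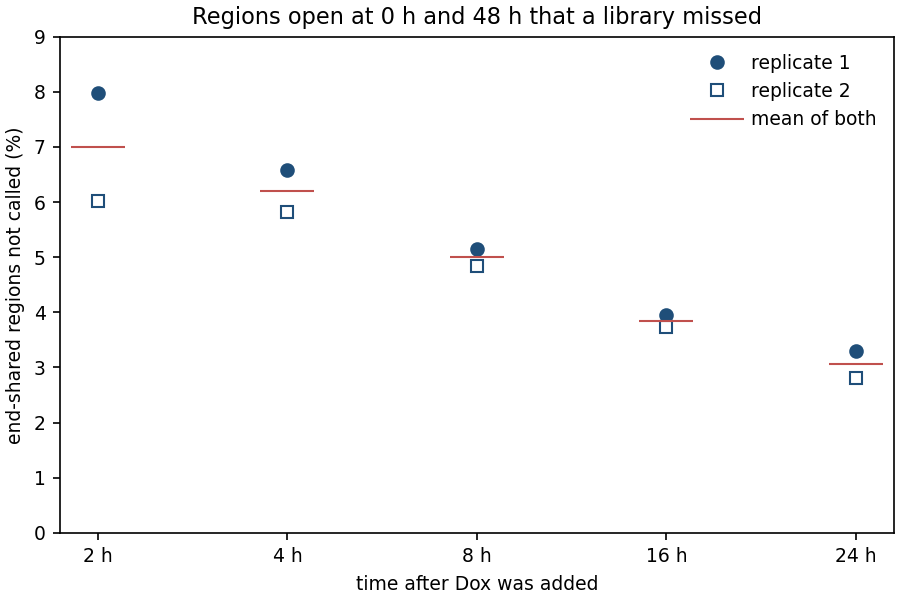
Share of the 22799 end-shared regions that each library did not call (%, vertical axis) at 2, 4, 8, 16 and 24 h after Dox was added (horizontal axis, equal steps). Filled circles are replicate 1, open squares replicate 2 and lines the mean of both; the mean is 7.0% at 2 h and 3.06% at 24 h.

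To ask whether an absence recurs, regions were chosen by 1 replicate and read in the other, which had no part in choosing them apart from its calls at 0 h and 48 h. Of the end-shared regions uncalled in 1 replicate at a given time point, the other replicate at the same time point also missed 51.0% ± 10.2 (2 h), 49.8% ± 4.4 (4 h), 51.2% ± 2.4 (8 h), 46.8% ± 1.7 (16 h) and 42.0% ± 4.7 (24 h) (SD, n = 2 directions). Another set held the end-shared regions called in all 7 libraries of 1 replicate. Of these, the other replicate missed between 0.855% ± 0.242 at 24 h and 2.28% ± 1.07 at 2 h (SD, n = 2). That set was chosen for having no missed call, so other time points are the closer reference. Recurrence averaged 48.2% at the same time point and 34.1% at other time points, a difference of 14.1 percentage points (one-sided exact permutation test over 120 matchings, p = 0.00833, the smallest it can give, adjusted p = 0.0125). Adjacent time points shared 40.0% and time points further apart 30.1%, a difference of 9.82 points (exact permutation test over 120 orders, p = 0.0167, the smallest it can give, adjusted p = 0.0167). Each share also depends on how many regions the time points missed, and those numbers fell from 2 h to 24 h. The test of adjacent time points does not separate this fall from shared absence.

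A region missed at 2 h in 1 replicate was missed at 24 h in the other in 13.8% ± 2.6 of cases, whereas a region missed at 24 h was missed at 2 h in 31.1% ± 3.8 (SD, n = 2). This asymmetry moves with the larger number of regions missed at 2 h and was not tested.

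**Figure D3:**
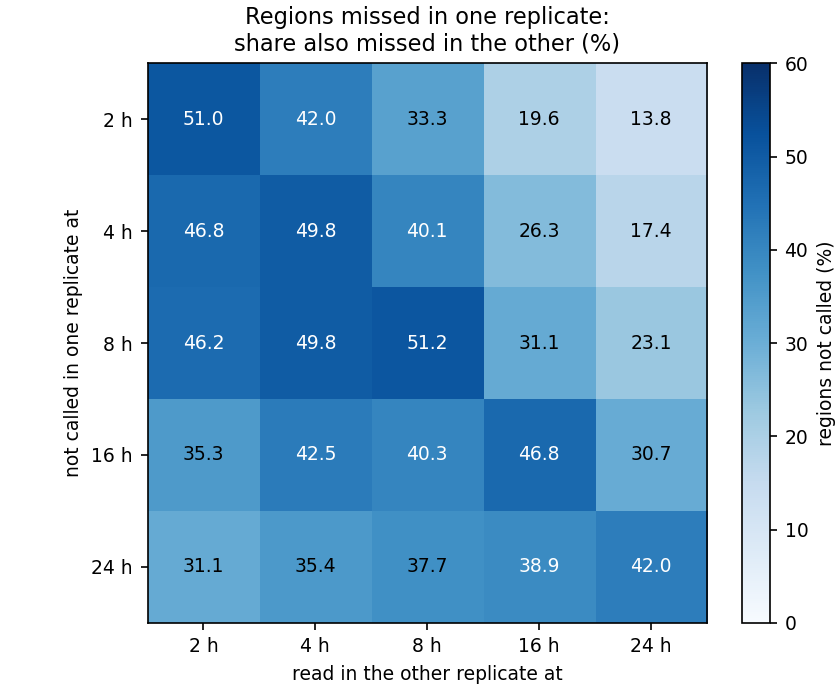
Heat map of the share (%) of end-shared regions uncalled in 1 replicate at the row's time point that the other replicate also left uncalled at the column's time point, as the mean of both directions. The diagonal lies between 42.0% and 51.2%, and 2 h read at 24 h gives 13.8%.

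Members were open but weak regions at both ends. The deposited score of each peak was turned into its percentile within the library, where 100 is the highest. The median over members and end libraries was 35.2, against 76.2 for the 18395 regions called in all 14 libraries. It was 43.5 for the 2754 end-shared regions just outside the rule, which at some time point were missed by 1 of 2 libraries and never by both, and 27.7 for the 2936 regions that failed it by 1 missing call at 0 h or 48 h. By band of score, members were 44.9% of end-shared regions under the 25th percentile, 19.2% from 25 to 50, 4.23% from 50 to 75 and 0.423% from 75 up. Only 22 members (1.33%) had a median above the 80th percentile, against 38.9% of the regions called in all 14 libraries.

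Scores where called differed between the time points before and after an absence. Among the 158 members absent at 8 h alone, the median percentile where called was 44.4 ± 0.8 (0 h), 29.0 ± 1.0 (2 h), 20.2 ± 0.5 (4 h), 37.3 ± 1.2 (16 h), 38.5 ± 0.4 (24 h) and 38.9 ± 0.7 (48 h) (SD, n = 2 libraries), so the low values lay on the earlier side. Each median covers only the members that the library called. Both libraries called 59.5% of these members at 2 h and 48.7% at 4 h, against all of them at 0 h and 48 h. For absences at 2 h and at 24 h, the end nearer in time was the weaker one. Members absent at 2 h alone stood at 29.0 ± 0.6 (0 h) and 46.8 ± 0.9 (48 h), and members absent at 24 h alone at 40.2 ± 0.6 (0 h) and 26.5 ± 1.1 (48 h) (SD, n = 2). Members absent at 16 h alone stood about equally at both ends, at 33.9 ± 4.3 (0 h) and 34.3 ± 4.7 (48 h) (SD, n = 2). Members absent at all 5 time points stood at 22.0 ± 4.7 at 0 h and 33.7 ± 4.5 at 48 h (SD, n = 2).

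Some members were not weak. The highest ranked member absent at 8 h alone was a 905 bp region in an intron of Tns3, a focal adhesion protein (ENSMUSG00000020422, chr11:8569208-8570112, 9461 bp from the TSS). Its percentile was 99.9 and 99.8 (0 h), 92.8 and 94.1 (2 h), and 82.6 and 80.2 (4 h), it was called in neither 8 h library, and it returned at 85.4 and 89.3 (16 h), 88.5 and 92.6 (24 h) and 97.4 and 97.9 (48 h). Every library outside 8 h thus ranked it above the 80th percentile, and the nearest 8 h peak was 2094 bp away. A 912 bp intronic region of Agpat4, an enzyme of phospholipid synthesis (ENSMUSG00000023827, chr17:12156211-12157122), had percentiles of 84.3 and 81.1 (0 h), 47.4 and 42.5 (2 h), 45.1 and 42.8 (4 h), and 89.8 and 85.4 (16 h), and ended at 98.5 and 99.0 (48 h). Another, in an intron of Kif18a, a mitotic kinesin (ENSMUSG00000027115, chr2:109311295-109312158), lay between 43.2 and 82.0 in all libraries but those of 8 h.

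Other time points had their own examples. A region in an intron of Plekhg1, a guanine nucleotide exchange factor (ENSMUSG00000040624, chr10:3941000-3941806), stood at 76.6 and 66.5 (0 h), was absent at 2 h, was called in 1 of 2 libraries at 4 h (3.57) and at 8 h (10.6), and stood at 84.8 and 90.6 (16 h). At 4 h, the promoter of Slc26a2, a sulfate transporter (ENSMUSG00000034320, chr18:61211195-61211924, 52 bp from the TSS), went from 47.4 and 43.4 (2 h) to no call, and stood at 40.4 and 47.7 (8 h) and 94.2 and 93.0 (48 h). The promoter of Phf14, a PHD finger protein (ENSMUSG00000029629, chr6:11925527-11926657), was called in every library but those of 4 h, at percentiles from 20.4 to 75.1. Near Ebf2, a transcription factor gene (ENSMUSG00000022053, chr14:67175938-67176920, 56863 bp from the TSS), a region stood at 93.5 and 94.7 (2 h), then at 55.5 and 64.4 (8 h) and was absent at 16 h. An intronic region of Abcb5, a transporter gene (ENSMUSG00000072791, chr12:118917574-118918310), stood between 94.6 and 97.6 in the 6 libraries up to 4 h, at 83.9 and 66.5 (8 h) and 68.0 and 69.6 (16 h), was absent at 24 h, and stood at 86.5 and 88.2 (48 h). The other members named for a single time point (near Mks1, Pdzrn3, Pawr, Stxbp4, Nudcd3 and Gm20594) stood between 55.1 and 94.7 in the 4 libraries of 0 h and 48 h.

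The 5 named members that no library called between 2 h and 24 h lay near Fbxo36, St6gal2, Olfr867, Ltbp2 and Plpp3. The Fbxo36 region (ENSMUSG00000073633, chr1:84871858-84872601) stood at 74.8 and 69.0 at 0 h and at 71.8 and 71.9 at 48 h. The Plpp3 region (ENSMUSG00000028517, chr4:105281683-105282294) stood at 82.9 and 76.7 at 0 h and 34.4 and 39.0 at 48 h, with another peak within 283 bp of it at a time of absence. Ltbp2 encodes a matrix protein that sits on fibrillin fibres, and its intronic region (ENSMUSG00000002020, chr12:84805336-84805924) stood at 35.8 and 46.2 at 0 h and 49.9 and 55.4 at 48 h. Across all members absent at a time point, the library's nearest peak was within 250 bp for 6.35% to 14.6% of them and at a median distance of 4090 bp to 7248 bp, over the 10 libraries.

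**Figure D4:**
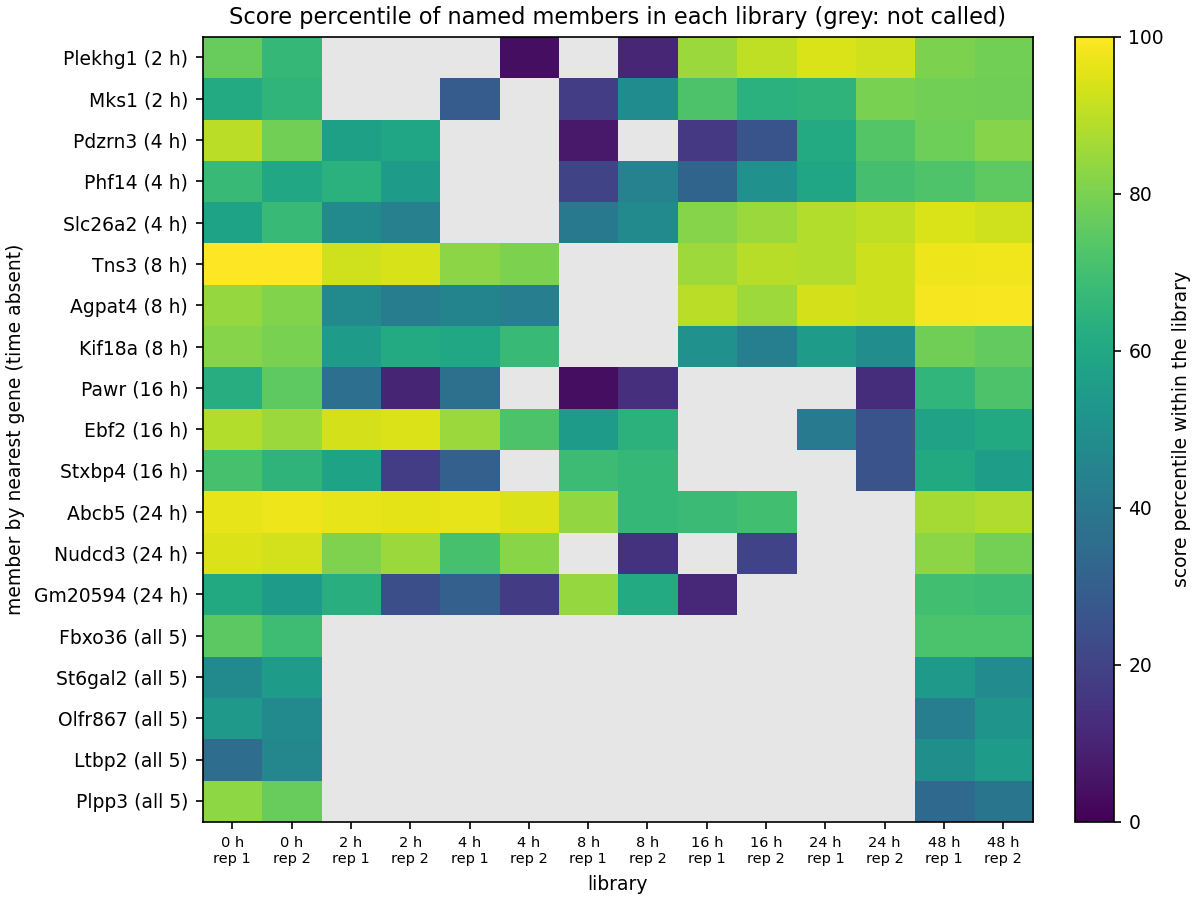
Score percentile within the library (colour, 0 to 100) of named members (rows, nearest gene and time point of absence) in each of the 14 libraries (columns). Grey cells are libraries without a call; the Tns3 region is above 80 in every library but those of 8 h, and the lowest 5 rows are grey from 2 h to 24 h.

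Members lay mostly away from promoters. Of the 1650, 27.8% were centred within 1 kb of a protein-coding TSS, 3.58% in another exon, 31.2% in an intron and 37.4% between genes. The promoter share was 54.7% for regions called in all 14 libraries, 36.1% for those just outside the rule and 18.8% for all 121891 regions. By band of score, promoters were 32.0% of members and 24.9% of regions called in all 14 libraries under the 25th percentile, 29.4% and 30.4% from 25 to 50, which holds the most members (897), 22.2% and 41.5% from 50 to 75, and 2.63% and 71.9% from 75 up. The share was thus lower in higher bands among members, with only 38 in the top band, and higher among regions called in all 14 libraries. Regions just outside the rule had no such order (37.2%, 31.5%, 43.5% and 31.7% in the same bands). Members were narrower than regions called in all 14 libraries (median 580 bp against 787 bp). They were wider than those just outside the rule (570 bp) and than all regions (489 bp). Members were less often CpG rich than regions called in all 14 libraries (18.2% against 45.7%, with a CpG ratio above 0.6 and GC above 50%). When members were defined by replicate 1 or replicate 2 alone, the promoter share was 29.8% ± 3.9 and the CpG-rich share 22.1% ± 3.1 (SD, n = 2 lists).

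Promoters were most frequent at 4 h, but a difference beyond the spread between libraries was not found. Of members absent at 4 h alone, 50.7% were promoters, against 29.3% at 2 h alone, 14.6% at 8 h alone, 22.8% at 16 h alone and 20.4% at 24 h alone. Per library, however, promoters were 35.3% and 39.5% of the end-shared regions missed at 4 h, 28.0% and 19% (8 h) and 22.0% and 35.5% (16 h), so libraries of 1 time point differed widely. No difference between time points beyond that spread was found (F = 2.29, exact permutation test, p = 0.207, adjusted p = 0.249 over the 12 features compared in this way).

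Motif letters were searched on both strands in the central 200 bases of each region, and windows could hold several motifs, each counted on its own. GATA factors were searched as AGATAA, AP-1 as TGACTCA, POU factors by the octamer ATGCAAAT, SOX factors as CATTGT and TEAD factors as GGAATG. Forkhead factors were searched as TGTTTAC, TCF factors as CTTTGAT, estrogen-related receptors as TCAAGGTCA and YY1 as AAGATGGC. The GC-rich motifs were KLF, searched as GGGCGTGG, SP proteins as GGGCGGG, the ETS family as CCGGAAG and the factor NRF1 as GCGCATGCG. The CTCF motif was searched as well. A match describes the letters and not binding. To set the promoter share aside, the values below are for regions over 1 kb from a TSS: 1191 members, 8341 regions called in all 14 libraries and 98941 of all regions.

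GATA letters were scarce in members. They stood in 4.87% of members, 7.5% of regions just outside the rule, 11.4% of regions called in all 14 libraries and 19.5% of all regions. Lists defined by a single replicate gave 6.75% ± 0.28 (SD, n = 2). A shuffled form of the letters, AATGAA, was present in 11.6% of members and 9.75% of regions called in all 14 libraries (the opposite order). Against all regions (12.9%) its order was the same as for GATA letters. In the percentile band from 25 to 50 the GATA share was 4.58% in members and 11.2% in regions called in all 14 libraries. AP-1 letters, read by FOS and JUN proteins, stood in 2.10% of members, 5.84% of regions called in all 14 libraries and 10.4% of all regions. They were in 0.920% of members absent only at 2, 4 or 8 h (7 of 761) but in 7.28% of those absent only at 16 or 24 h (15 of 206), without a test. SP letters stood in 5.12% of members, 9.82% of regions called in all 14 libraries and 4.87% of all regions, so members were low only against the former. For GATA letters, no difference between time points beyond the spread between libraries was found (exact permutation test, F = 0.708, p = 0.603). The regions missed per library held GATA letters in 5.95% ± 0.14 (2 h), 4.58% ± 0.66 (4 h) and 5.14% ± 1.76 (8 h) of cases. The GATA shares were 5.30% ± 0.23 (16 h) and 5.53% ± 0.03 (24 h) (SD, n = 2), against 10.1% of all end-shared regions.

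SOX letters, the core site of SOX2 and related factors, were frequent in members that were absent at 8 h. They were present in 18.3% of members (218 of 1191), 12.3% of regions just outside the rule, 11.6% of regions called in all 14 libraries and 15.2% of all regions. Lists defined by a single replicate gave 14% ± 0.8 (SD, n = 2). Among members absent at 8 h alone the share was 34.1% (46 of 135). It was 7.92% at 2 h alone, 12.4% at 4 h alone, 16.3% at 16 h alone and 12.2% at 24 h alone. Other letters were also most frequent at 8 h alone. These included forkhead (9.63%, against 0.952% to 3.77%), TEAD (20.7%, against 9.43% to 17.1%) and AATGAA (14.8%, against 9.76% to 10.5%). GATA (4.44%), AP-1 (0.741%) and CTCF (0.741%) were least frequent there. Median GC was also lowest there (48.5%, against 49.5% to 54%). Whether base composition accounts for the SOX share was not tested. Per library, the end-shared regions missed at 8 h held SOX letters in 22.0% and 21.3% of cases. The values were 14.7% and 14.9% (2 h), 17.6% and 16.6% (4 h), 12.3% and 14% (16 h) and 16.3% and 14.9% (24 h), and no library of another time point reached those of 8 h. The shares differed between time points by more than the spread between libraries (F = 31.9, exact permutation test over 945 pairings, p = 0.00106, the smallest it can give, adjusted p = 0.00635 over 12 features, chosen after values of these data had been seen). By band of score, the share in members was 14.2% under the 25th percentile, 16.4% from 25 to 50, 25.5% from 50 to 75 and 24.3% from 75 up (37 members). In the same bands it was 9.02%, 9.27%, 11.5% and 13.5% of regions called in all 14 libraries. It was 8.88%, 9.86%, 16.4% and 32.6% of regions just outside the rule (43 regions in the last band), so a higher share in higher bands was not particular to members.

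TCF letters, read by the TCF/LEF effectors of Wnt signalling, stood in 4.79% of members, 2.73% of regions called in all 14 libraries and 4.00% of all regions. Lists defined by a single replicate gave 3.59% ± 0.10 (SD, n = 2). Per library they were in 4.19% ± 0.01 of regions missed at 2 h, 5.27% ± 0.48 (4 h), 4.83% ± 0.02 (8 h), 3.76% ± 0.08 (16 h) and 3.4% ± 0.39 (24 h) (SD, n = 2; F = 15.3, exact permutation test, p = 0.00106, the smallest it can give, adjusted p = 0.00635). This call was lost when a peak within 250 bp counted as a call (p = 0.165, exact permutation test) and with the 50000 highest peaks per library (p = 0.054). CTCF motifs, sites of the insulator protein, were in 5.70% ± 1.54 of regions missed at 2 h and 9.28% ± 0.14 at 24 h (SD, n = 2), and no difference between time points beyond the spread between libraries was found (exact permutation test, p = 0.0772, adjusted p = 0.154). Octamer letters stood in 1.34% of members, 2.17% of regions called in all 14 libraries and 2.63% of all regions.

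**Figure D5:**
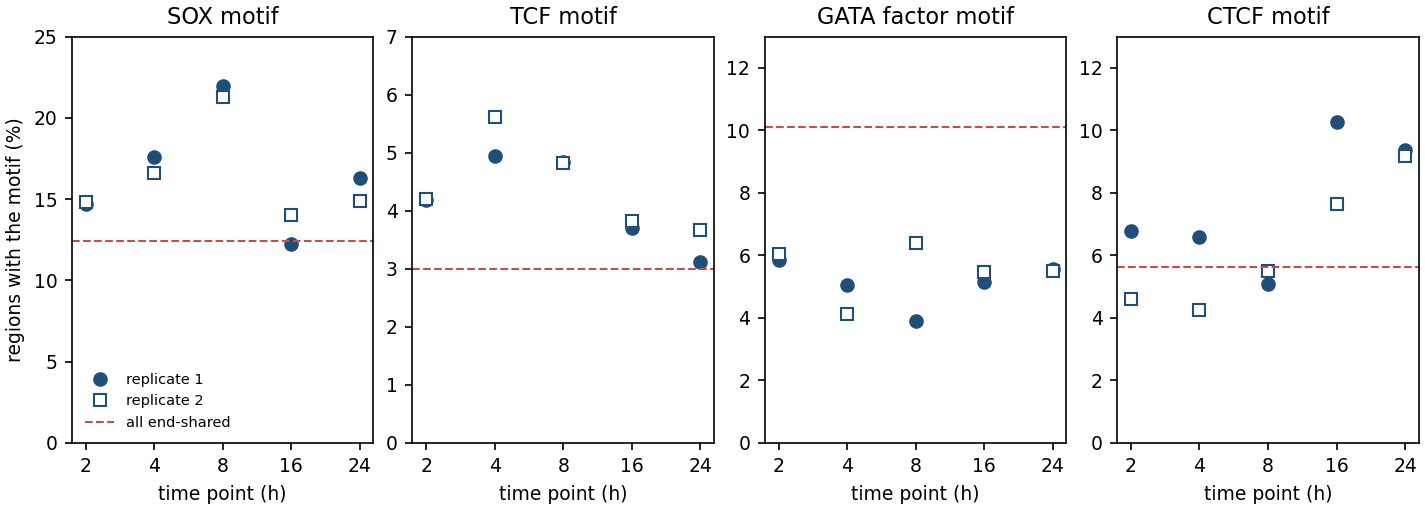
Share (%) of end-shared regions over 1 kb from a TSS that hold SOX, TCF, GATA or CTCF letters, among those each library left uncalled, by time point (h); the vertical scales differ between panels. Filled circles are replicate 1, open squares replicate 2, and the dashed line is the share in all end-shared regions; SOX is highest in the 8 h libraries (22.0% and 21.3%) and GATA is below its line in all 10.

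By the same ranking, the first 3 members that were absent at 8 h alone, lay over 1 kb from a TSS and held SOX letters are shown next. They were chosen after their values were seen.
Agpat4 region, chr17:12156567-12156766: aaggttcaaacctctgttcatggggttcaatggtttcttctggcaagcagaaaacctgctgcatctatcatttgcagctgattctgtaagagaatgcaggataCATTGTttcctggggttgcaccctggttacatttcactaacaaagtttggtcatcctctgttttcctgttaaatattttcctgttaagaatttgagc
1700020N01Rik region, chr10:21701719-21701918: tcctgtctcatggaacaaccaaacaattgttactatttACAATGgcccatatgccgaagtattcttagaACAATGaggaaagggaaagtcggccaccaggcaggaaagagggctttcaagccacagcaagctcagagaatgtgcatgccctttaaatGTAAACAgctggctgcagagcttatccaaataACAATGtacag
Tgfbr3 region, chr5:107110104-107110303: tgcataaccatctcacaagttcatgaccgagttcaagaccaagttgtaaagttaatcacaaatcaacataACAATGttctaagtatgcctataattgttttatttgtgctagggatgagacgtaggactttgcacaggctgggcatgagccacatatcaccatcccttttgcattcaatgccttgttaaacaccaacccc
The region near 1700020N01Rik (ENSMUSG00000050844) stood at 84.1 and 81.1 (0 h), 50.1 and 50.1 (2 h) and 16.1 and 16.1 (4 h), was absent at 8 h, and stood at 69.4 and 68.5 (48 h). Its window held SOX letters at 3 places and forkhead letters at 1. The region in an intron of Tgfbr3, a TGF-beta co-receptor, stood at 68.0 and 66.7 (0 h), 41.3 and 49.6 (2 h), 14.7 and 11.6 (4 h), and 79.9 and 78.1 (16 h). Both were ranked lower at 2 h than at 0 h, and lower again at 4 h, in every library.

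Newly opened regions were counted near members. A region gained at 2 h (called in both 2 h libraries and in neither 0 h library) was centred within 10 kb of 26.1% of the members absent at 2 h, against 15.8% of the end-shared regions both libraries called. Away from TSSs the values were 24.3% and 18.4%. The values were 26.2% and 20.3% (4 h), 22.5% and 23.3% (8 h), 30.9% and 28.2% (16 h) and 20.8% and 27.1% (24 h), so the order turned at 8 h and at 24 h. Regions lost at 2 h lay near 11.1% of members and 11.1% of the others away from TSSs. These shares had no replicate test.

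Assigned to the nearest protein-coding TSS within 50 kb, 1400 members fell to 1286 genes, of which 1181 had 1 member. Only 8 genes had 3 or more: Etl4 (4 of its 12 end-shared regions), Bnip3 and Cradd and Tbc1d1 (3 of 4 each), Ctif and Rgs3 (3 of 5 each), Prex1 (3 of 6) and Plekhf2 (3 of 7). Members were 6.73% of all end-shared regions assigned in this way. By chromosome they made up 5.91% (chromosome 7) to 8.50% (chromosome 6) of end-shared regions.

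The gene lists stood near that background. Members were 3 of 32 end-shared regions for naive and core pluripotency genes, 2 of 24 for PrE genes, 4 of 45 for ERK and serum response genes, 0 of 25 for Wnt and LIF targets and 3 of 30 for chromatin genes. For the study's own lists, which rest on transcript data, members were 69 of 966 regions at PrE genes (7.14%) and 26 of 438 at Epi genes (5.94%).

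Among pluripotency genes the members were near Sall4 and Tbx3. A region 23339 bp from the TSS of Sall4, a zinc finger factor of the inner cell mass (ENSMUSG00000027547, chr2:168790835-168791728), stood at 57.0 and 75.4 (0 h), was absent at 2 h, was called in 1 of 2 libraries at 4 h (2.65) and 8 h (9.84), and stood at 89.9 and 92.2 (16 h) and 98.2 and 97.8 (48 h). The other Sall4 region, 1573 bp from the TSS (chr2:168769255-168769777), was absent at 2 h and 4 h and had a percentile of 47.8 and 11.7 (0 h) and 74.3 and 65.4 (48 h). Both Sall4 regions were ranked higher at 48 h than at 0 h in every library. The Tbx3 region, in an intron of this T-box factor gene (ENSMUSG00000018604, chr5:119681750-119682235), was absent at 2 h alone and stood at 30.3 and 27.3 (0 h), between 69.6 and 75 in the 16 h and 24 h libraries, and at 23.2 and 39.3 (48 h).

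Of the PrE genes, Sparc encodes a matrix protein secreted by parietal endoderm. The Sparc region, 6691 bp from the TSS (ENSMUSG00000018593, chr11:55392485-55393280), was absent at 2 h alone and went from 13.9 and 20.1 (0 h) to 70.6 and 50.4 (48 h).

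In the ERK and serum response list, members lay near Spry2 and Spred1, both inhibitors of the ERK pathway, and Ier2, an immediate-early gene. The Spry2 region (ENSMUSG00000022114, chr14:105851370-105852026, 45121 bp from the TSS) was the one listed member lost from 4 h to 24 h: it stood at 54.9 and 37.4 (0 h) and 16.7 and 22.9 (2 h), had no call in the next 8 libraries, and stood at 35.2 and 2.14 (48 h). Of the 2 Ier2 regions, the one 7108 bp from the TSS (ENSMUSG00000053560, chr8:84655534-84655953) was absent from 2 h to 8 h and went from 79.4 and 59.3 (0 h) to 50.7 and 54.6 (16 h), and the one 2222 bp from it (chr8:84664978-84665169) was absent at 2 h alone. The Spred1 promoter (ENSMUSG00000027351, chr2:117120334-117121152) was absent at 2 h and had its next peak 57 bp away.

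The chromatin genes were Dnmt3a, a de novo DNA methyltransferase, Kdm1a, a histone demethylase, and Ep300, a histone acetyltransferase. The Dnmt3a promoter region (ENSMUSG00000020661, chr12:3806258-3806690, 24 bp from a TSS) was called at 5.14 and 21.4 (0 h), in neither library at 2 h, in 1 (4 h), and at 69.0 and 60.5 (48 h). The Kdm1a promoter region (ENSMUSG00000036940, chr4:136602437-136602977) stood at 14.9 and 23.5 (0 h), was absent at 4 h, and stood at 61.8 and 66.3 (48 h). The Ep300 region (ENSMUSG00000055024, chr15:81561310-81561864) was absent at 4 h, and single libraries missed it at 2 h and 8 h. All 3 were below the 25th percentile in both 0 h libraries.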

How the data were processed

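The authors processed ATAC-seq reads with the ENCODE pipeline. They deposited 1 peak list per library, whose file names give an irreproducible discovery rate of 0.05 on pseudoreplicates and a blacklist filter, so replicates were not pooled. Each peak carries 1 deposited score on an unstated scale, used here only as its percentile within a list. The submitters' processing notes name mm10 (GRCm38), and 0 of 821472 autosomal peaks ended past their chromosome in that build. The aligner is not given in the sources used here.

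Autosomal peaks were merged by an overlap of 1 bp or more, and a region was called where a peak of the library overlapped it. Positions (counted from 1), annotation (GENCODE M21) and sequence (RefSeq GRCm38.p6) were read with pysam 0.24.0 and pandas 2.3.3. A promoter is a region centred within 1 kb of a protein-coding TSS, and motifs were matched in the central 200 bp. Tests were one-sided exact permutations over libraries, checked on simulated data, with Benjamini-Hochberg adjustment in families of 3 and 12. The simulated data without a planted effect held no ordered change over time in the missed share. They measure the spread between libraries only.

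Named regions were, for each time point, the 3 members absent there alone with the highest lowest percentile over the 4 libraries of 0 h and 48 h, the 5 absent at the most time points, and every member within 50 kb of a gene in the 5 lists. Some of these are not reported here. Members, lists and rules were chosen with earlier results of these data known. Alternatives changed the merging, the call, the number of peaks, the promoter and motif windows, the replicate block and the libraries used. The deviations of same-numbered libraries hardly correlated (between -0.0156 and 0.0125 over 21 pairs of time points). Replicate 1 nevertheless missed more end-shared regions at 5 of 5 time points.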

Additional observations from a re-analysis of the deposited data

Results flagged for a closer look

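The share of end-shared regions left uncalled differed between the 5 time points by the test of that difference itself (F = 10.8, exact permutation p = 0.00635), with means of 7.0% (2 h) and 3.06% (24 h), each over 2 libraries. The sex chromosomes were outside the rule: 44 of 512 end-shared regions on chromosome X (8.59%) met its conditions, of which 2 h missed 27, 4 h 16, 8 h 17, 16 h 8 and 24 h 8, and on chromosome Y 1 of 6 did.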

How the results depend on the processing

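Under the other merging, calling and peak-number settings the number of members was 1548 to 1850 and the first 3 tests kept their direction and their side of 0.05. With the replicate block, F for the uncalled share was 20.6 (exact p = 0.00833). The deviations of same-numbered libraries hardly correlated, although replicate 1 missed more end-shared regions at 5 of 5 time points. The promoter share was 23.8% with peaks within 100 bp merged, 37.2% where a call had to cover 50% of the region, 42.7% within 5 kb of a TSS and 32.4% with TSSs of all genes. Over all members, promoters included, the GATA share was 4.48% in the main setting. It was 4.59%, 4.15%, 5.89% and 4.39% with merging, 50% coverage, a 250 bp margin and the 50000 highest peaks, 17.6% in whole regions, 4.87% away from TSSs and 4.37% in the lower 50 percentiles of score, the last added after seeing the data. The share in whole regions was not set beside that of other regions. The median percentile was 50.0 with 50% coverage and 43.3 by width. F for TCF letters was 2.17 with the margin and 5.82 with the highest peaks; the cause was not tested.

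Leaving out 1 library gave 1873 to 2855 members (2855 without 0 h replicate 1). Fewer calls are then required for a library of 0 h or 48 h, and fewer missed calls for one of 2 h to 24 h. Members absent numbered 798 to 1821 at 2 h, 701 to 1502 at 4 h, 583 to 1176 at 8 h, 410 to 899 at 16 h and 291 to 753 at 24 h; the highest of each was without replicate 2 of that time point at 2, 4, 8, 16 and 24 h, and leaving out either replicate of that time point or of 0 h moved each count by over 1.5 times, as 48 h replicate 1 did for 16 h (635) and 24 h (544) and 48 h replicate 2 for 24 h (460). The GATA share was 4.25% to 5.23%, the promoter share 25.5% to 32.8% and the median percentile 31.6 to 37.5. F was 6.82 to 44.8 for the uncalled share, 16.4 to 63.5 for SOX and 8.73 to 28.3 for TCF letters, all with p under 0.05. The same-time difference was 11.9 to 16.0 points and that of adjacent time points 7.81 to 12.4, where 4 complete time points allow no p below 0.0833. The peak lists hold no read counts, and absence is limited by each library's calling threshold.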
